A study of Danio rerio with 6 samples.

Results

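Thyroid hormone acts on a cell through a small set of genes, and 5 of them were followed in adult zebrafish retina with and without a mutation of thyroid hormone receptor beta: the receptor genes thrb and thraa, the hormone-inactivating deiodinase genes dio3a and dio3b, and the corepressor gene ncor1. They were chosen by symbol, and all 5 are present among the 9211 genes of the authors' deposited table. Retinas came from 6-month-old fish of the AB* background in 2 groups: thrb mutants, homozygous for the stl628 allele, and wild-type fish of the same clutches. Each group holds 3 samples, and each sample pools 4 retinas, one pair from a male and one pair from a female. The labels name the allele but not the change it makes in the gene.

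Thyroid hormone receptors are nuclear receptors that sit on DNA, mostly as partners of retinoid X receptors. Without hormone they recruit corepressors such as that of ncor1, which bring a histone deacetylase and silence nearby genes; bound hormone exchanges these for coactivators. Deiodinases set how much active hormone a cell sees, since the enzyme of dio2 turns thyroxine into the active triiodothyronine and the enzymes of the dio3 genes inactivate both. In the retina of fish and mammals, thrb is known for its part in making cones sensitive to long wavelengths, the red cones of zebrafish.

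The values are those of poly-A-selected RNA from whole retina. The authors' deposited table gives the mean normalized count of each genotype (reads per gene divided by a factor for library size, averaged over the samples), the log2 fold change of mutant over wild-type, and the standard error of that change. It holds no values per sample, so the spread between samples is seen only through that standard error (SE), and read depth is unknown. Normalized counts are not divided by transcript length, so levels are compared between genotypes and not between genes. "Fell" and "rose" mean an adjusted p under 0.05 in a Wald test of the fold change over its standard error against no change, with Benjamini-Hochberg adjustment over all listed genes; intervals are 95% intervals from the same standard errors. The rod transducin gene gnat1, a marker named outside the fixed rule, with a mean of 114287 normalized counts in mutants and 105625 in wild-type in the authors' deposited table, and the opsins of every cone type identify the tissue as retina. Whole-retina RNA cannot tell fewer cells of a type from less RNA per cell, which touches every result given here.

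Of the 5 genes, 2 fell in the mutant retina, thrb and ncor1, and none rose, while thraa, dio3a and dio3b did not pass the test. Over all listed genes the same test called 2.08% in either direction, 1.21% as lower and 0.879% as higher. As thrb is the mutated gene, its call checks the labels and is no finding about the pathway. That leaves 1 call, that of ncor1, among the 4 genes that were not mutated. The genes were chosen with earlier results of these data known, so this count cannot be weighed against the share over all genes. The authors' own test, which asks for a change beyond 2-fold and called 0.076% of the listed genes, called thrb alone of the 5.

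**Figure D1:**
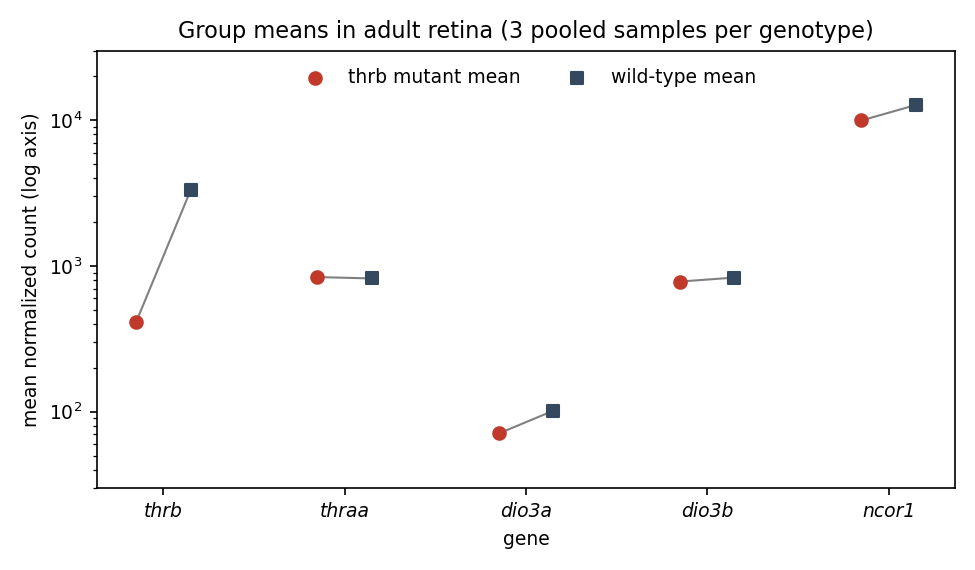
Mean normalized count of each of the 5 genes (log axis) in thrb mutant retina (red circles) and wild-type retina (dark squares), 3 pooled samples per genotype, from the authors' deposited table, which gives no values per sample and so no error bars. The line of thrb is steep, 413 in mutants against 3301 in wild-type, that of ncor1 is shallow, 9964 against 12722, and those of thraa and dio3b are nearly flat.

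The mutated receptor gene kept a minor share of its transcripts. In the authors' deposited table thrb had a mean of 413 normalized counts in mutants against 3301 in wild-type, a log2 fold change of -3.01 (SE 0.13, n = 3 pooled samples per genotype, Wald test adjusted p = 1.31e-110). That left 12.4% of the wild-type level, with an interval of 10.4% to 14.9%. Only 5 of the 9211 listed genes had a larger absolute fold change than thrb, which held place 6. In the authors' own test beyond 2-fold its deposited adjusted p was 2.89e-48. Reads were counted per gene, so the remaining counts do not say which exons they cover or whether they make protein.

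As a share of the wild-type level, the remainder of thrb was far above that of the transcripts it is best known to control. The 2 red cone opsins opn1lw1 and opn1lw2 stood at 0.343% and 0.146% of wild-type in the authors' deposited table. In mutants opn1lw1 had 177 normalized counts, against 51643 in wild-type, and opn1lw2 had 61.1, against 41322, again in the authors' deposited table. The fold change of thrb was less negative than that of opn1lw1 by 5.18 on the log2 scale (SE 0.42, interval 4.35 to 6.02, adjusted p = 5.14e-34), and than that of opn1lw2 by 6.42 (SE 0.21, interval 6.01 to 6.83, adjusted p = 1.53e-203, Wald test of the difference). Put as a ratio, the share of thrb left over was 36.3 times that of opn1lw1 (interval 20.4 to 64.7) and 85.6 times that of opn1lw2 (64.3 to 114). These belong to 5 differences tested and adjusted together, 4 of which are given. The errors of the 2 genes were taken as independent because the table gives no covariance. Counts of thrb are RNA of the mutated gene from whole retina and do not measure working receptor. A relation of dose between thrb and the red opsins was not tested.

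The gene for thyroid hormone receptor alpha a, thraa, did not take a detectably different level in the mutant. The authors' deposited table gives it 839 normalized counts in mutants against 821 in wild-type, a log2 fold change of 0.03 (SE 0.16, Wald test adjusted p = 0.997). Its interval ran from 81.8% to 128% of wild-type, so a rise of thraa beyond 1.28-fold lies outside it, as does a fall below 0.818-fold. Of all listed genes 81.3% had an absolute fold change at least as large. The fold changes of the 2 receptor genes differed by -3.04 (thrb minus thraa, SE 0.21, interval -3.45 to -2.63, Wald test of the difference, adjusted p = 1.56e-46). With thraa near no change, this difference restates the fall of the mutated gene and is no separate finding.

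Together thrb and thraa summed to 1252 normalized counts in mutants and 4122 in wild-type in the authors' deposited table, 30.4% of the wild-type sum. The share of that sum that belonged to thrb was 33.0% in mutants and 80.1% in wild-type. Nearly the whole of this shift came from thrb, since the mean of thraa differed by 18.2 normalized counts and that of thrb by -2889 (mutant minus wild-type, from the authors' deposited table). The sums carry no error and are shares of reads, which depend on the length of each transcript. The remaining receptor gene of the list, thrab, is not analysed here.

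Neither of the deiodinase 3 genes passed the test. For dio3a the authors' deposited table gives 70.8 normalized counts in mutants and 101 in wild-type (log2 fold change -0.52, SE 0.26, adjusted p = 0.57, Wald test). Its interval was wide, 49.3% to 99.1% of wild-type. For dio3b the authors' deposited table gives 781 in mutants and 833 in wild-type, a log2 fold change of -0.09 (SE 0.17, Wald test adjusted p = 0.997), with an interval of 75.0% to 118%. Both estimates lay on the lower side, and only that of dio3b had an interval that spanned no change. The interval of dio3a is not adjusted for the number of genes (unadjusted p = 0.044, Wald test). Of all listed genes 8.29% had an unadjusted p under 0.05 in the same test. The fold change of dio3a was 0.43 below that of dio3b, with an interval of -1.03 to 0.17 that includes 0 (SE 0.31, Wald test of the difference, adjusted p = 0.20).

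The precision of the pair differed. The standard error of dio3a was larger than that of 91.1% of listed genes, and the 2611 genes within 2-fold of its mean had a median standard error of 0.22. Its absolute fold change was place 221 of 9211, a size that 2.40% of genes reached, but a large standard error favours a high place. By p-value in the Wald test dio3a held place 719. The standard error of dio3b was 0.17, where the 2996 genes within 2-fold of its mean had a median of 0.12. Summed, the dio3 genes stood at 852 normalized counts in mutants and 934 in wild-type in the authors' deposited table, with dio3b holding most of the sum in both genotypes.

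The activating deiodinase dio2 lay on the other side of 0. The authors' deposited table gives it 725 normalized counts in mutants and 533 in wild-type, a log2 fold change of 0.44 (SE 0.14, interval 0.16 to 0.73) that missed the threshold in the Wald test (adjusted p = 0.085). The enzyme of dio1 can both activate and inactivate the hormone; this gene, named here after its value was seen, had 95.9 in mutants and 78.3 in wild-type in the authors' deposited table (0.29, SE 0.24, interval -0.18 to 0.75). None of the 4 deiodinase genes passed, where 2.08% of all listed genes did. Their median log2 fold change was 0.10, against 0.00063 for all listed genes. The difference between dio2 and the dio3 genes was not tested.

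The corepressor gene ncor1 fell modestly. Its mean was 9964 normalized counts in mutants against 12722 in wild-type in the authors' deposited table, a log2 fold change of -0.35 (SE 0.10, interval -0.55 to -0.15, Wald test adjusted p = 0.033). The mutant level was 78.3% of wild-type, with an interval of 68.1% to 90.0%. Of all genes 6.06% showed an absolute fold change at least as large, and among the 111 genes that fell ncor1 held place 100 by size. Its standard error was larger than that of 14.1% of all genes, and slightly above the median of 0.095 over the 207 genes within 2-fold of its mean. The point estimate of dio3a was further from 0 than that of ncor1, and its standard error was 0.26 against 0.10; the difference between these genes was not tested.

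In the RefSeq assembly GRCz12tu ncor1 overlaps 1 other gene, si:dkey-65b12.12, and thrb overlaps 1 uncharacterised gene. Neither of these is in the table, and thraa and the dio3 genes overlap none. No strand-marking step is named in the library protocol, so reads from such overlaps could come from either gene. The authors used the build danRer10 and their annotation is not given, so how such reads were counted is unknown.

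The call of ncor1, like that of nearly all called genes, depends on the reference distribution. With a t distribution of 4 degrees of freedom, a strict allowance for the few samples, the adjusted p was 0.999 for ncor1 and 0.10 for thrb. Only 1 of all listed genes passed, and the mutated gene did not, so this setting says little about ncor1 in particular.

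**Figure D2:**
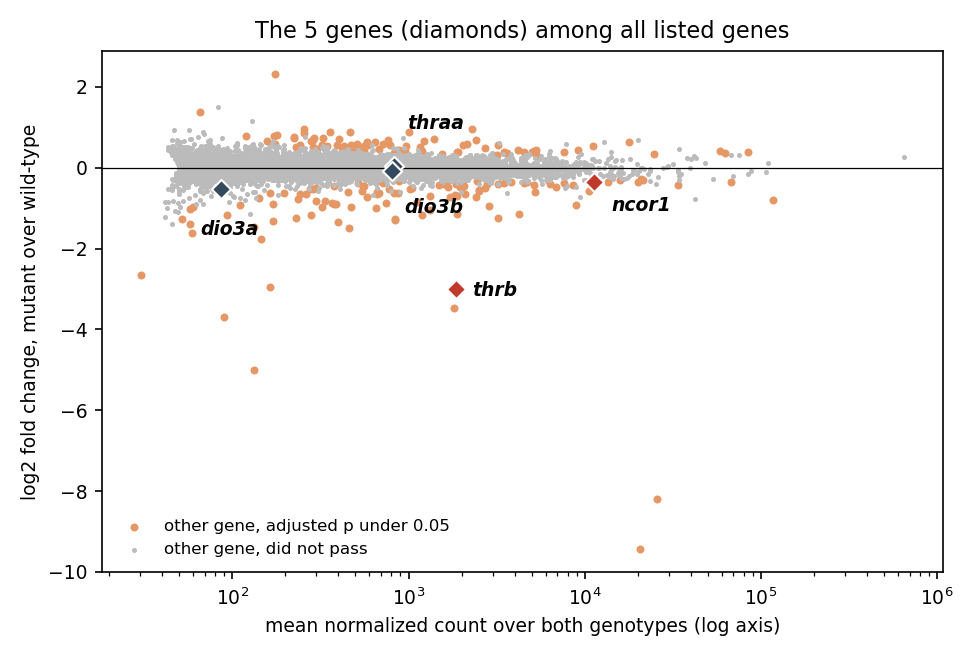
Log2 fold change of mutant over wild-type against the mean normalized count (log axis) for all 9211 listed genes, with the 5 genes as diamonds, red where the adjusted p was under 0.05 and dark otherwise. The diamond of thrb, at -3.01, stands apart from the band of genes, while ncor1, at -0.35 and a mean of 11343, and dio3a, at -0.52 and a mean of 86.1, lie at its lower edge.

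**Figure D3:**
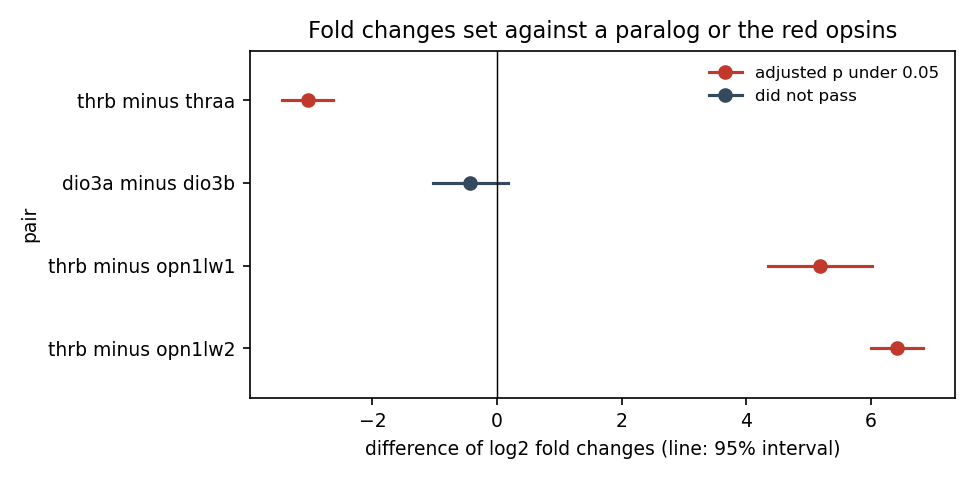
Difference of the log2 fold changes of 2 genes for 4 pairs, with 95% intervals as lines, red where the adjusted p was under 0.05. The change of thrb stands apart from that of thraa, at -3.04, and from those of the red opsins, at 5.18 and 6.42, while the interval of the dio3 pair includes 0. As thrb is the mutated gene, its difference from thraa restates its own fall.

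Transcripts of the other listed corepressor complex genes did not pass the test. Of 6 listed genes of the complex, all measured, 1 fell, none rose and 5 did not pass, with a median log2 fold change of -0.03. The same test called 2.08% of all listed genes, so the lack of a call among 5 genes says little about them. The deacetylase hdac3, which the complex carries, stood at -0.04 (SE 0.14, interval -0.32 to 0.24) in the authors' deposited table, named here after its value was seen. Normalized counts of the 6 genes summed to 12192 in mutants and 14841 in wild-type in the authors' deposited table. Without ncor1 the other 5 summed to 2227 in mutants and 2119 in wild-type in the authors' deposited table.

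A wider set of thyroid hormone genes covered receptors, retinoid X receptors, corepressor complex, coactivators, deiodinases, selenocysteine insertion, hormone transport and responsive genes, and 32 of its 54 genes are in the table. Of these 2 fell (thrb and ncor1), 1 rose and 29 did not pass, where 2.08% of all listed genes passed, and the median log2 fold change was -0.0014. Without the 5 genes of interest, 1 of 27 rose, none fell, and the median was 0.03. The lists, too, were chosen with earlier results of these data known. The genes that are not in the table are not analysed here.

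The gene that rose was sephs1, of the selenophosphate synthetase family. The authors' deposited table gives it 272 normalized counts in mutants against 189 in wild-type, with a log2 fold change of 0.53 (SE 0.15, Wald test adjusted p = 0.024). It stood on the list because deiodinases contain selenocysteine, but in mammals the enzyme that makes selenophosphate is that of the paralog sephs2. The call of sephs1 was lost with the t distribution and in the authors' test beyond 2-fold, which cannot call an estimate within 2-fold. Under the name sps2, sephs2, picked out after its value was seen, had 806 in mutants and 801 in wild-type in the authors' deposited table (0.01, SE 0.12).

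None of 4 measured retinoid X receptor genes, whose products pair with thyroid hormone receptors, passed, where 2.08% of all listed genes did. In the authors' deposited table those with the highest counts, rxrba and rxrbb, had log2 fold changes of -0.08 (SE 0.090) and -0.12 (SE 0.12). Their relative rxrga, named after its value was seen, had 105 normalized counts in mutants and 158 in wild-type in the authors' deposited table, a log2 fold change of -0.60 (SE 0.19, interval -0.98 to -0.23, Wald test adjusted p = 0.069). Coactivator genes were represented by 3 of 10, none of which passed, with prmt1 at -0.11 (SE 0.087) and ncoa2 at 0.10 (SE 0.10) in the authors' deposited table.

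No measured transporter gene of thyroid hormone passed, with 5 of 11 in the table, where 2.08% of all listed genes passed. The amino acid transporters slc7a5 and slc7a8a, which also carry thyroid hormone, had values of -0.08 (SE 0.14) and 0.04 (SE 0.11) on the log2 scale in the authors' deposited table. Of the hormone-responsive list 4 of 8 were measured and none passed. Here nrgna, the gene of the synaptic protein neurogranin, stood at 0.09 (SE 0.11) and klf9, a transcription factor gene that thyroid hormone induces in many vertebrate tissues, at 0.56 (SE 0.50) in the authors' deposited table. The gene of the enzyme that makes vitamin A2, cyp27c1, was picked out after its value was seen and had 81.6 normalized counts in mutants and 139 in wild-type in the authors' deposited table (-0.76, SE 0.32, Wald test adjusted p = 0.35).

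**Figure D4:**
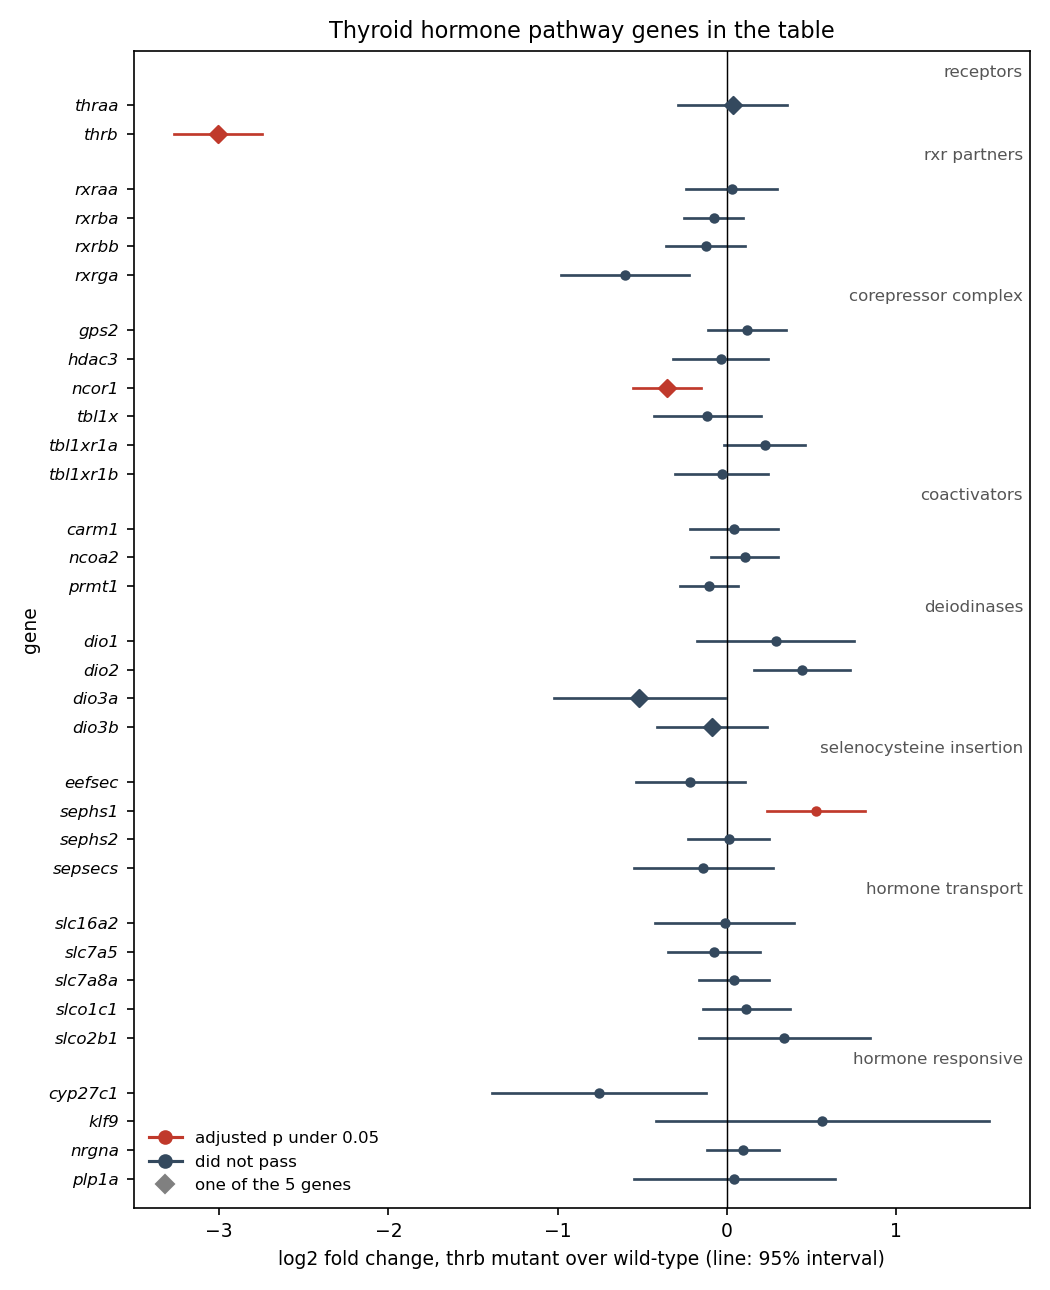
Log2 fold change of mutant over wild-type with its 95% interval for the 32 thyroid hormone pathway genes in the table, grouped by role; diamonds mark the 5 genes and red marks an adjusted p under 0.05. Only thrb, ncor1 and sephs1 are red, and thrb at -3.01 lies far from all the others, which run from -0.76 to 0.56.

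Genes with fold changes most like those of the 2 that fell were found by the smallest absolute difference of log2 fold change, a likeness over the 2 group means only. Genes with clone-type names, symbols ending in a dotted number or date-like symbols were left out of this search. Nearest to thrb in the authors' deposited table was mhc1uba, which encodes an MHC class I molecule, at -2.94 (SE 0.23). Then came arhgap11a, a GTPase-activating protein gene, at -2.64 (SE 0.46), in the same deposited table. Last was rassf6, of the Ras association domain family, at -3.69 (SE 0.78), again in that deposited table. Distances from thrb were 0.065, 0.36 and 0.68 in that order. The authors' deposited table gives arhgap11a and rassf6 only 8.3 and 13.2 normalized counts in mutants, so their likeness to thrb is loosely known. In the same deposited table mhc1uba had 38.6 in mutants. The larger group mean of a listed gene is never below 50.04, so mhc1uba, arhgap11a and rassf6 are listed only through their wild-type means. Among genes past the test, those nearest to ncor1 were mpp5b, a cell polarity gene, at -0.35, clul1, a clusterin-like gene, at -0.34, and idh2, the mitochondrial isocitrate dehydrogenase gene, at -0.36, in the authors' deposited table, all within 0.0086 of it.

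Markers of cell types were read beside these changes. Of 6 listed genes of the pigment epithelium, a layer next to the retina, 4 were measured and all 4 fell, and their normalized counts summed to 1535 in mutants and 3191 in wild-type in the authors' deposited table. Both red opsins fell, with a sum of 239 in mutants and 92965 in wild-type in the authors' deposited table. Of the other lists, 2 of 6 opsins of other cones rose, 1 of 5 rod genes rose and 1 of 5 horizontal cell genes fell. Of amacrine genes 1 of 6 fell, 2 of 7 ganglion cell genes rose, and none of 7 bipolar and 5 Müller glia genes passed. The ganglion cell genes that rose, named after their values were seen, were elavl3 and elavl4, at 0.49 and 0.39 in the authors' deposited table. The median log2 fold change of the 7 ganglion cell genes was -0.02. Of all listed genes 1.21% fell and 0.879% rose. Lens, blood and muscle lists of 4 genes each had 1, 2 and 1 measured members, none of which passed. Of the 2 blood members 1, cahz, also stands on the Müller glia list. No measured marker was at 0, and markers that are not in the table, tyr and mitfa among them, are not analysed here. The part of these cell types in the fall of ncor1 was not tested.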

How the data were processed

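Poly-A-selected RNA of 6 pooled zebrafish retina samples was sequenced, with 12 cycles of amplification and every RNA integrity number above 8.7, per the labels' protocols. Per the submitters' processing notes, the authors used the build danRer10, R 3.4.3, DESeq2 1.18.1, HTSeq 0.9.1, cutadapt 1.9.1 and STAR 2.7.2b, with no role or order named; annotation and filters: not given in the sources used here. Per gene, the authors deposited a signal (the normalized count averaged within a genotype), a log2 fold change with standard error, a score (the test statistic), and p-values for a change beyond 2-fold. The larger group mean is never below 50.04. The direction was checked: fold changes lie within 0.030 of the log2 ratio of the means. Per-sample values are not used here, so depth is unknown and p-values rest on the authors' model of spread between pooled samples.

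From these values, the fold change over its standard error was put through a two-sided Wald test with normal reference. The p-values were Benjamini-Hochberg adjusted over 9211 genes (Python 3.11.15, scipy 1.17.1). The procedure was tested on simulated data with normal errors drawn from the deposited standard errors. That simulation cannot tell whether a normal reference suits standard errors estimated from 3 samples per genotype. The genes, the lists and this test were chosen with earlier results of these data known. Named were the 5 genes, both red opsins, thyroid hormone list genes past the test, the 2 with the highest counts of such a list with none, and the 3 nearest in fold change to thrb and to ncor1. That nearness was sought only among genes without clone-type names, dotted-number endings or date-like symbols. One planned comparison is not reported here. Missing symbols were sought through RefSeq synonyms. Alternatives were the t distribution, the authors' test, adjustment over 13700 genes (the number the deposited adjusted p-values imply), minimum means of 100 and 200, centring, and a ratio of group means with a pseudocount of 1.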

Additional observations from a re-analysis of the deposited data

How the results depend on the processing

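Most alternatives reuse the deposited fold changes, and the others shift them little. The signs of the 5 fold changes and 4 differences therefore could hardly change, and they held. The differences were tried only with the t distribution and the ratio of means, and the call of each held. The differences were adjusted over 5 tests and the genes over 9211. Holding with the t distribution thus does not make the differences firmer than the calls of single genes. With the t distribution of 4 degrees of freedom, 1 of all listed genes, 0 of the 5 genes and 0 of the 32 pathway genes passed, although 2 of the 5 and 5 of the 32 had an unadjusted p under 0.05 with it (3 and 7 in the Wald test with the normal distribution), where all listed genes gave 3.37% with it and 8.29% with the normal distribution. With the authors' test beyond 2-fold, 7 of all listed genes, 1 of the 5 and 1 of the 32 passed. In both settings ncor1 and sephs1 lost their calls. The authors' test could not have kept them, since both estimates lie within 2-fold. With the t distribution the adjusted p of ncor1 was 0.999. In the remaining alternatives its Wald test adjusted p ran from 0.0255 (minimum mean of 200) to 0.049 (adjustment over 13700 genes). The t distribution also cost thrb its call (adjusted p = 0.10). Adjusted over 13700 genes, with a minimum mean, centring or the ratio of means, all-gene counts ran from 166 to 195, against 192. Each of these settings kept the calls of 2 of the 5. Over 13700 genes the Wald test adjusted p of ncor1 was 0.049, just under the threshold. The mean of dio3a lies below both minimum means. The median fold change of all genes, 0.00063, left centring almost without effect. No paired analysis was possible because the table gives group means and no values per sample; for the same reason no sample could be left out in turn. Standard errors limit what can be seen: for dio3a the interval spans 0.493-fold to 0.991-fold. The part of depth in them was not tested.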

Other observations

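The listed genes nearest to the 5 in the order of the RefSeq assembly GRCz12tu did not pass the test. They were looked up once the values were known. Some lay several genes away, up to 21 for chrm5a from dio3a, and the unlisted genes between are not analysed here. Taking the 2 nearest listed genes on each side, 0 of 20 neighbours passed the Wald test, and 1 of them had an unadjusted p under 0.05 (0 with the t distribution). Over all listed genes 2.08% passed and 8.29% had an unadjusted p under 0.05 (3.37% with the t distribution), so these counts are near the background. The neighbour with an unadjusted p under 0.05 was rpl15, near thrb (Wald test adjusted p = 0.39). The neighbours' log2 fold changes ran from -0.24 to 0.28 in the authors' deposited table. Around thrb these were rpl15, a ribosomal protein gene, at -0.22 (SE 0.097), nr1d2b, a nuclear receptor gene of the circadian clock, at -0.03 (SE 0.65), top2b, a DNA topoisomerase gene, at -0.07 (SE 0.091), and ints8, of the Integrator complex, at 0.02 (SE 0.15), in the authors' deposited table. The gene beside ncor1, pigl, of glycolipid anchor synthesis, stood at 0.02 (SE 0.28) in the same deposited table. The other listed neighbours of ncor1 were alkbh2 at -0.24 (SE 0.22), ubb at -0.21 (SE 0.16) and bcl7a at 0.11 (SE 0.11) in that deposited table.

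Standard errors of nr1d2b and klf9 were far above those of genes with like means. The standard error of nr1d2b was 0.65, where 846 genes within 2-fold of its mean had a median of 0.095, and that of klf9 was 0.50, where 3240 such genes had a median of 0.19. The fold changes of these genes in the authors' deposited table are thus known only within wide intervals, from -0.42 to 1.55 for klf9.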
